A study of Rattus norvegicus with 2 samples.

Results

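Collagens, laminins, nidogens and the integrins that bind them were followed in primary rat oligodendrocyte precursor cells (OPCs), with the matrix proteins fibronectin (Fn1), periostin (Postn) and osteonectin (Sparc) and the integrin-like protein Itgbl1. Members were taken by gene symbol, and 84 of the 17202 genes in the deposited table matched: 41 collagen chains, 13 laminin chains and nidogens, 26 integrin subunits and 4 other genes. One culture of wild-type brain OPCs was treated with amyloid-beta (Aβ), the peptide of Alzheimer plaques, at 1 µM for 2 days. The other received the solvent DMSO, and the protocol text of both samples describes the Aβ treatment only. The labels carry an unexplained P1 in both titles, speak of developing rats in the design and of adult OPCs in the extraction text, and do not say whether animals were pooled. Each culture gave 1 library, so nothing below has a replicate check and no test was made. Values compare 2 libraries, and intervals cover counting error only.

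The extracellular matrix around OPCs is built from secreted proteins and read by receptors on the cell. Collagen chains wind into triple helices that form fibrils, networks or beaded filaments. Laminins are cross-shaped trimers of an alpha, a beta and a gamma chain, and nidogens link them to collagen IV in basement membranes. Integrins are pairs of an alpha and a beta subunit that bind these proteins outside the cell and, through adaptors such as talin and kindlin, the actin cytoskeleton inside. In the oligodendrocyte lineage, laminin receptors that contain the beta subunit Itgb1 are known for their part in survival and myelination, and the alpha subunit Itgav pairs with several beta subunits.

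Library totals were 15117102 estimated counts for Aβ and 15019416 for DMSO. Several markers of OPCs were abundant, with the transcription factor Olig1 at 850 TPM with Aβ and 841 TPM with DMSO and the growth factor receptor Pdgfra at 228 TPM and 206 TPM. Others were low: C1ql1 at 14.5 TPM and 14.8 TPM, Cspg4 at 14.4 TPM and 13.2 TPM, Neu4 at 5.68 TPM and 6.69 TPM and Matn4 at 1.91 TPM and 3 TPM. All 11 OPC markers found in the table were measured, and their summed level was 2266 TPM and 2192 TPM. Astrocyte markers were also high. Gfap, their intermediate filament, stood at 838 TPM and 793 TPM, 8 of 9 listed genes were measured, and the sum was 1475 TPM and 1402 TPM. Neuronal markers summed to 684 TPM and 661 TPM, of which Tubb3 had 372 TPM and 353 TPM and Stmn2 212 TPM and 208 TPM. Oligodendrocyte markers summed to 598 TPM and 560 TPM, of which Cnp had 524 TPM and 487 TPM. The oligodendrocyte markers Mag, Opalin, Ermn and Mobp did not exceed 1.5 TPM in either library. Sums were lower for fibroblasts (157 TPM and 151 TPM, of which Pdpn had 121 TPM and 120 TPM), pericytes and smooth muscle (24.4 TPM and 21.5 TPM), microglia and macrophages (17.3 TPM and 22.2 TPM), Schwann cells (10.2 TPM and 11.5 TPM) and endothelium (3.55 TPM and 2.66 TPM). The fibroblast markers Lum, Mfap5 and Dpt, the pericyte marker Rgs5 and the endothelial marker Emcn were at 0 counts in 1 library each. In these bulk samples, fewer cells of a type and less RNA per cell cannot be told apart, and the part of each cell type in the levels below was not tested.

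The matrix and integrin genes took 0.454% of all counts with Aβ and 0.461% with DMSO. TPM (a transcript level scaled by length and library) allows levels of different genes to be set side by side. Sparc, a secreted collagen-binding protein, was the most abundant member at 235 TPM with Aβ and 236 TPM with DMSO. Itgb1, the beta subunit shared by most matrix-binding integrins, followed at 213 TPM and 208 TPM. Next came Col16a1, a collagen that associates with fibrils, at 91.1 TPM and 88.3 TPM, and Col4a1, the main basement membrane chain, at 81.5 TPM and 79.4 TPM. Each of these 4 genes was separated from the next in the order by counting intervals that did not overlap in either library. The order then became closer. Col5a3 (68.8 TPM and 71.6 TPM), Itgav (69.0 TPM and 70.6 TPM) and Col11a1 (66.1 TPM and 65.2 TPM) had neighbouring intervals that overlapped in at least 1 library, and Itgb8 stood below them at 58.1 TPM and 53.5 TPM. Col6a1, Itga6, Itgb5 and Col9a3 completed the 12 most abundant members, between 39.1 TPM and 52.6 TPM, and the 12 together held 76.2% of the summed TPM of the 84 genes with Aβ and 76.1% with DMSO.

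**Figure D1:**
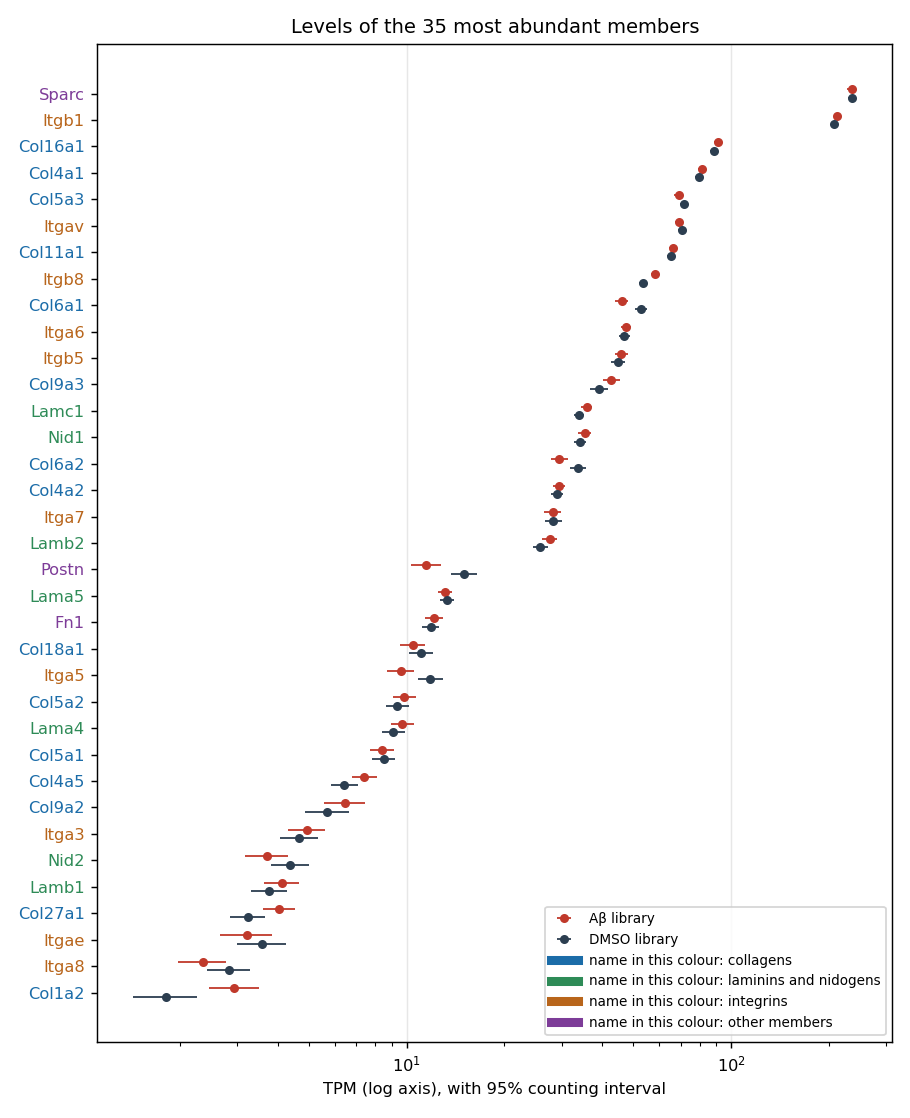
TPM on a log axis of the 35 members with the highest mean TPM, 1 point per library (Aβ in red, DMSO in dark blue) with its 95% counting interval, and gene names coloured by family. Sparc and Itgb1 stand well apart from the rest in both libraries. The points of the 2 libraries lie close together for most genes, with the widest gaps for Col1a2, Postn, Col27a1, Itga5, Itga8 and Nid2.

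A gene was counted as measured at 1 CPM (a count scaled to the library total) or more in at least 1 library, which 58 of the 84 members passed. The other 26 had between 0 and 15 estimated counts in a library and are described at the end of the results. Across the 58, the levels with Aβ and with DMSO were close. Ratios above 1 were found for 28 and below 1 for 30, with a median log2 ratio of -0.0057 beside -0.00078 for all 13505 measured genes. The log2 ratio used a pseudocount of 0.5 CPM and understates differences of low genes. No member met the rule of size used here, a log2 ratio of at least 1 in size with a counting interval of the ratio that left out 1, where 0.267% of all measured genes were called higher and 0.407% lower. Of the 91 genes called in either direction, 79 had estimated counts that were not whole, as had only 4 of the 58 members. These shares are therefore not a like comparison for the members. The interval lay within 1.5-fold in both directions for 36 of the 58 members. It left out 1, at any size, for 4 members on the higher side (6.9% of 58, beside 6.49% of all measured genes) and for 6 on the lower side (10.3%, beside 6.88%). Among the 35 members at 10 CPM or more these numbers were 2 higher (5.71%, beside 7.3% of genes at that level) and 6 lower (17.1%, beside 7.51%). The 10 genes are Col1a2, Col28a1, Col27a1 and Itgb8 on the higher side, and Postn, Itga5, Col6a1, Col6a2, Col5a3 and Itgav on the lower side. Col28a1 passed the minimum of 1 CPM only in the Aβ library, where it was higher, so it had to differ. Over the 54 members at 1 CPM or more in both libraries the numbers were 3 higher (5.56%, beside 6.42% of genes at that level) and 6 lower (11.1%, beside 6.6%). Long transcripts had slightly higher ratios over the whole table. When the median log2 ratio of genes of like length was subtracted, an alternative chosen after seeing the data, the intervals of Col27a1 and Itgb8 held 1, and that of Itga8 lay wholly below it. The numbers were then 2 higher (beside 5.89% of all genes with a length), Col1a2 and Col28a1, both under 10 CPM, and 7 lower (beside 6.23%).

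**Figure D2:**
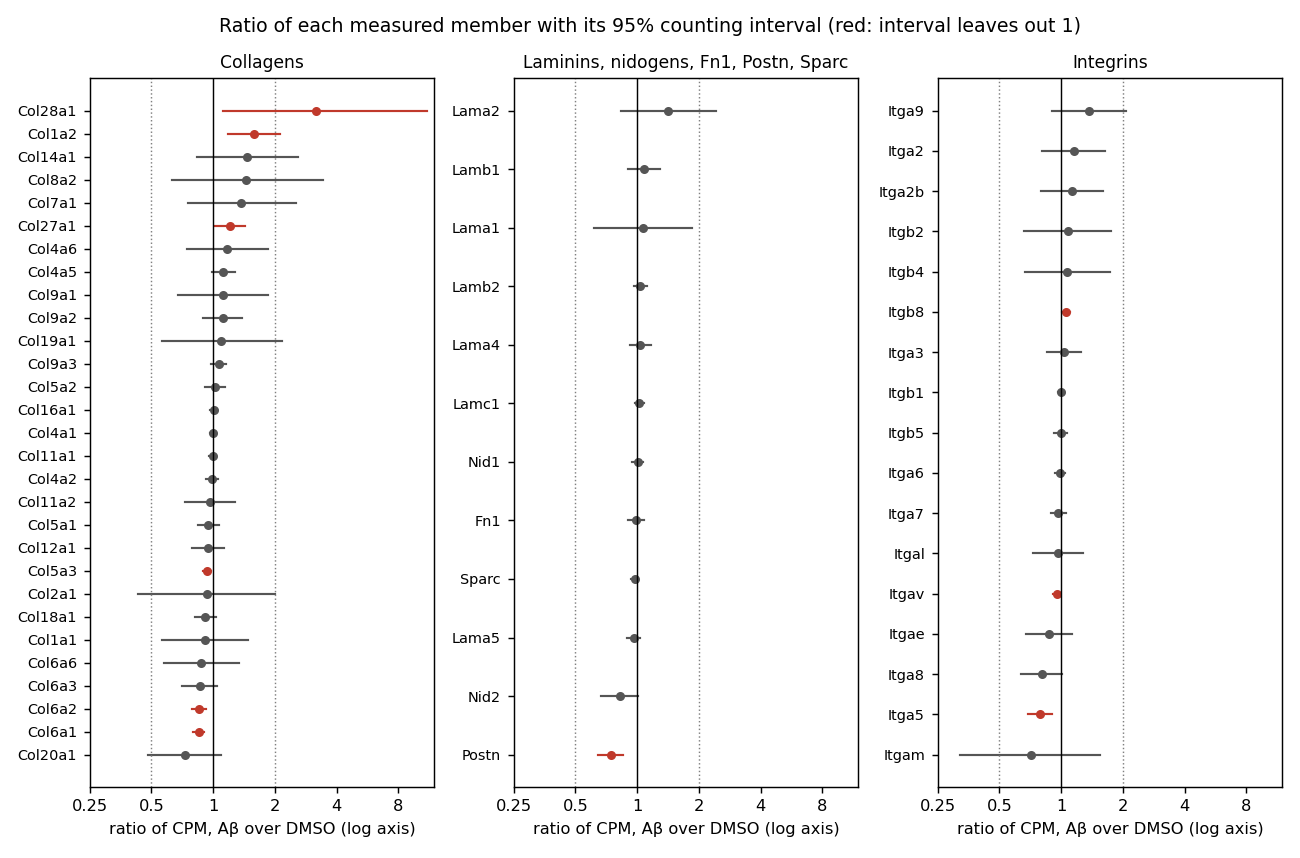
Ratio of CPM in the Aβ library over the DMSO library on a log axis for the 58 measured members, with 95% counting intervals, in 3 panels by family. The 10 members whose interval leaves out 1 are red, dotted lines mark ratios of 0.5 and 2, and only Col28a1, with 16 and 5 counts, has a point beyond them.

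**Figure D3:**
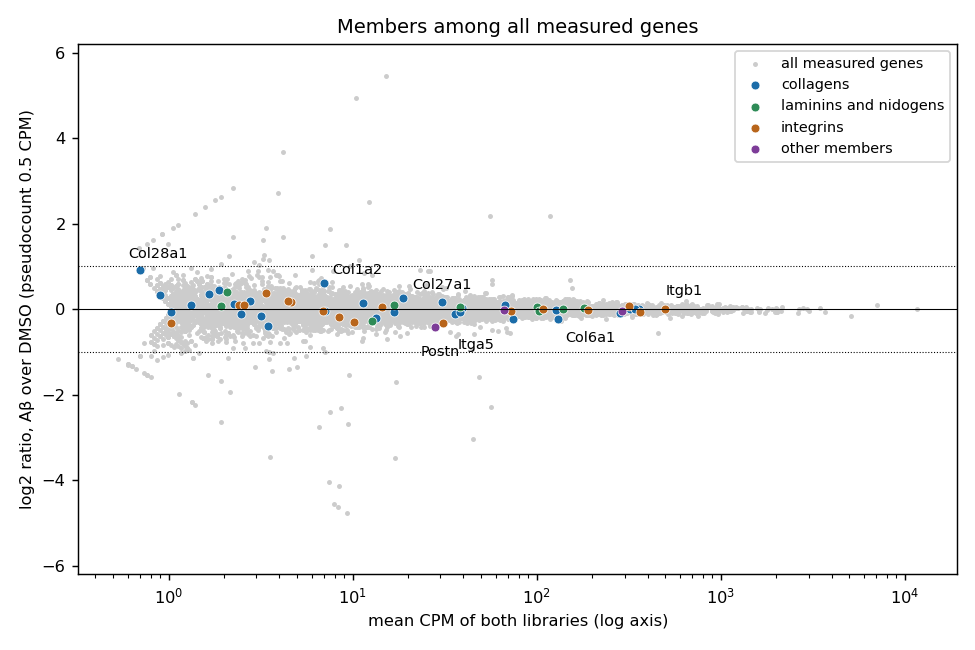
Log2 ratio of Aβ over DMSO (pseudocount 0.5 CPM) against the mean CPM of both libraries on a log axis, with all 13505 measured genes in grey and the 58 members coloured by family. All 58 members lie between the dotted lines at -1 and 1, from -0.42 for Postn to 0.90 for Col28a1.

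Collagen IV, the network collagen of basement membranes, was led by Col4a1 and Col4a2, whose chains assemble in 1 trimer. Col4a1 had 5411 estimated counts with Aβ against 5381 with DMSO, for a ratio of 0.997 (0.960 to 1.04). Col4a2 had 1924 and 1932 counts, a ratio of 0.988 (0.927 to 1.05). Both intervals held 1, and the TPM of Col4a1 was 2.76 times that of Col4a2 with Aβ and 2.73 times with DMSO. These genes are transcribed away from each other. In the RefSeq annotation of GRCr8, a later build than the one named for the counts, their start sites lie 77 bases apart on chromosome 16, and the promoter windows from 250 bases before to 50 bases after each start overlap by 176 bases, read from opposite strands. The windows are shown because this shared stretch is where 2 genes with closely similar ratios begin. Capitals mark matches on either strand to the CCAAT box (CCAAT), the GC box (GGGCGG), the TATA box (TATAAA) and the AP-1 site (TGANTCA), and no 2 of the marked matches overlap within a window.
Col4a1 (GRCr8 chr16:84885347-84885646, plus strand): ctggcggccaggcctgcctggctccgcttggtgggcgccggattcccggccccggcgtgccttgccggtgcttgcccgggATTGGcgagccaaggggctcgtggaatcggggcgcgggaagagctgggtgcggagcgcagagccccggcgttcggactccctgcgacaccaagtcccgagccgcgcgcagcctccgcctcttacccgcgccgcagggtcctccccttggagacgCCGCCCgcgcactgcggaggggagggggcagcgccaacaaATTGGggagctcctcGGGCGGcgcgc
Col4a2 (GRCr8 chr16:84885471-84885770, minus strand): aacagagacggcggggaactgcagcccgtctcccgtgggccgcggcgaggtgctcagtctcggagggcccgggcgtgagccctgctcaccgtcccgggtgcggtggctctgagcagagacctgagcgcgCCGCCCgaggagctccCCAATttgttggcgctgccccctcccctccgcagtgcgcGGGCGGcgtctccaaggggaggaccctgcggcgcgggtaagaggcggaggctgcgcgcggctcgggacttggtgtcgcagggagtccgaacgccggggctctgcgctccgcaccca
In the Col4a1 window, CCAAT boxes start at -170 and 24 and GC boxes at -16 and 39, counted in bases from the start site. In the Col4a2 window a CCAAT box starts at -105 and GC boxes at -121 and -66, and the capitals in the shared stretch are the same bases seen from the other strand. Of 33469 windows in the RefSeq promoter table, 37.5% hold the CCAAT box and 33.1% the GC box, against 37.7% and 63.2% of the windows of 10615 measured genes, 1 window each. Of the 64 members matched to the table by gene identifier, 18 hold the first (28.1%) and 35 the second (54.7%). A match describes letters and shows no binding.

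The other collagen IV chains in the table were low. Col4a5 had 489 counts with Aβ against 433 with DMSO, for a ratio of 1.12 (0.982 to 1.28), and Col4a6 had 45 and 38 counts, a ratio of 1.17 (0.746 to 1.86). They are a further divergent pair, with start sites 1415 bases apart in GRCr8, and both intervals held 1.

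Collagen VI, which forms beaded microfilaments next to basement membranes, was lower in the Aβ library. Col6a1 had 1819 counts with Aβ against 2118 with DMSO (46.1 TPM and 52.6 TPM), for a ratio of 0.852 (0.800 to 0.907). Col6a2 had 1035 and 1203 counts (29.6 TPM and 33.7 TPM), a ratio of 0.853 (0.785 to 0.928). Col6a3, the large partner of both in the classical trimer, had 187 and 216 counts, and its ratio of 0.859 had an interval that held 1 (0.702 to 1.05). The 3 ratios were nearly equal, so the proportions of the chains were kept: the TPM of Col6a1 was 1.56 times that of Col6a2 in both libraries, and 24 and 23.8 times that of Col6a3. Summed over the 3 chains, a sum formed after the values were seen, there were 3041 and 3537 counts, a ratio of 0.853 (0.812 to 0.895). Col6a6, a chain that can take the place of Col6a3, had 45 and 51 counts, and Col6a4 and Col6a5 had between 3 and 7 counts. Col6a1 and Col6a2 lie side by side on chromosome 20 in GRCr8. The Col6a1 window is shown as that of the more abundant chain of the group that differed, and the table gives no window for Col6a2.
Col6a1 (GRCr8 chr20:11905440-11905739, plus strand): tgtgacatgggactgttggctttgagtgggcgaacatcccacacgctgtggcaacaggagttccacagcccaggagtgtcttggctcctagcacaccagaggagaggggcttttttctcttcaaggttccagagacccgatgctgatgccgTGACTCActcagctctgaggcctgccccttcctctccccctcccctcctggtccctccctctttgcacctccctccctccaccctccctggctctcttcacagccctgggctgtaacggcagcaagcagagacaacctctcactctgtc
Its capitals mark an AP-1 site at -99, a motif found in 7.33% of all windows, in 4.50% of those of measured genes and in 3 of the 64 member windows (4.69%). No CCAAT, GC or TATA box by these letters was found in it.

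**Figure D4:**
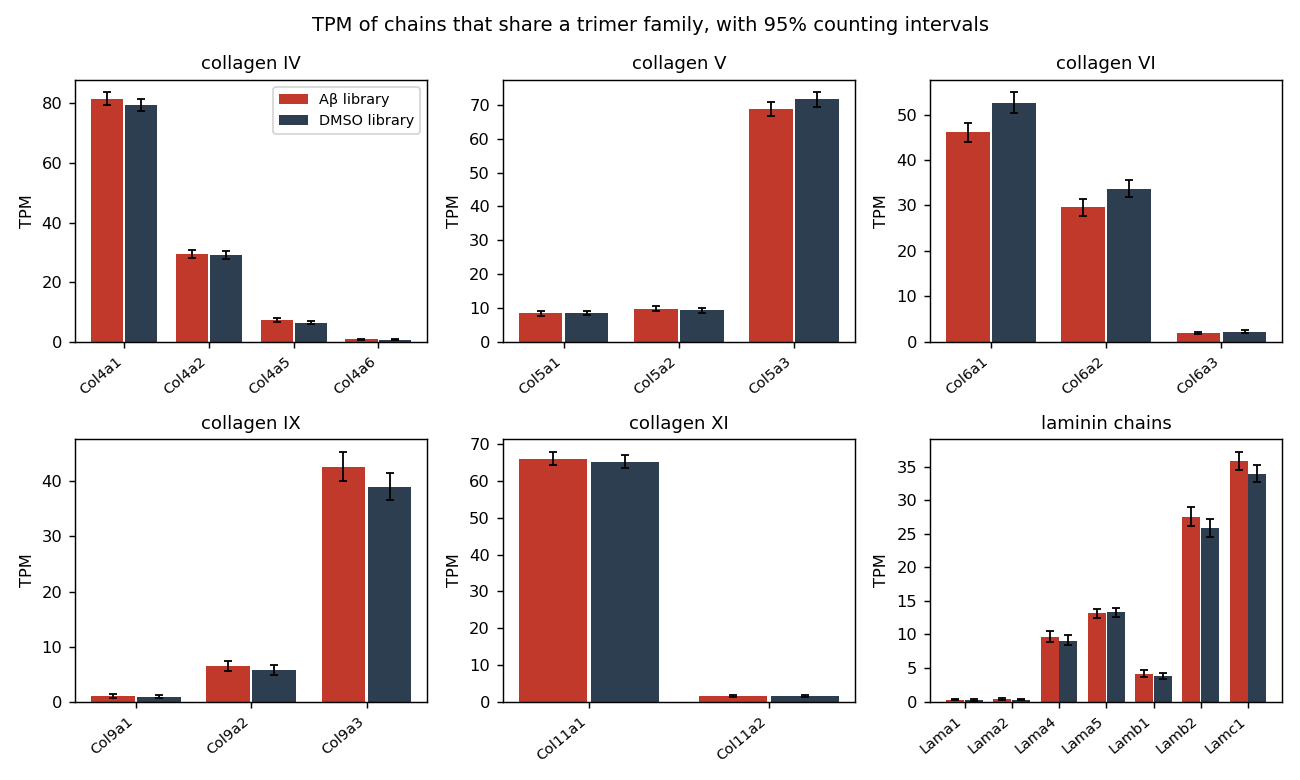
TPM of chains of collagens IV, V, VI, IX and XI and of laminins, as bars from 0 (Aβ red, DMSO dark blue) with 95% counting intervals. One chain leads each of the collagen panels, Col6a1 and Col6a2 are both lower with Aβ, and laminin chains differ little between the libraries.

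Among fibril-forming collagens, Col5a3 and Col11a1 were the most abundant, and no chain of types I, II or III exceeded 2.94 TPM. Col5a3 led type V with 4153 counts with Aβ against 4400 with DMSO, for a ratio of 0.936 (0.897 to 0.977). Col5a1 had 564 and 590 counts (0.948, 0.843 to 1.07) and Col5a2 had 600 and 583 (1.02, 0.909 to 1.15). The TPM of Col5a3 was 8.19 times that of Col5a1 with Aβ and 8.43 times with DMSO. Col11a1 had 5129 and 5119 counts (0.994, 0.956 to 1.03), while Col11a2, its partner in cartilage fibrils, had 105 and 108, or 1.45 TPM and 1.53 TPM. Of these 5 chains only Col5a3 had an interval that left out 1, and the 3 type V chains summed to a ratio of 0.946 (0.911 to 0.983). This sum too was formed after the values were seen, and most of its counts belong to Col5a3.

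Collagen I, the fibril of connective tissue, held the furthest member at 5 CPM or more. Col1a2 had 129.3 estimated counts with Aβ against 81.22 with DMSO (2.94 TPM and 1.81 TPM), for a ratio of 1.58 (1.19 to 2.11). These counts are fractional, and no source used here says how the reads were divided, so the value is uncertain. Its partner chain Col1a1 had 36 and 39 whole counts, a ratio of 0.916 (0.566 to 1.48). The 2 chains of collagen I therefore lay on opposite sides of 1, and the TPM of Col1a2 was 4.74 times that of Col1a1 with Aβ and 2.78 times with DMSO. Their summed ratio was 1.36 (1.07 to 1.74), in a sum formed after the values were seen. Most of its counts belong to Col1a2, so it adds no separate evidence. Col3a1, the companion fibril of soft tissue, had 4 and 6 counts, and the cartilage chain Col2a1 had 15 and 16. The fibroblast marker Mfap4 had 55.86 and 11.58 fractional counts, a ratio of 4.63 (2.45 to 9.49), and was the only gene of the marker and pathway lists to meet the rule of size. Mfap4 passed the minimum of 1 CPM only in the Aβ library, so its ratio had to exceed 1. Among the other fibroblast markers, Fbln1 had 567 and 518 counts, Pdpn 1970 and 1994, Pi16 81 in each, and Lum 0 and 2. Their part in the Col1a2 difference was not tested. Col27a1, a further fibrillar chain, had 312 and 256 whole counts, a ratio of 1.21 (1.02 to 1.43), and this interval too held 1 with the length trend removed.

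Of the collagens that sit on fibrils, Col16a1 had 4887 counts with Aβ against 4823 with DMSO, for a ratio of 1.00 (0.966 to 1.05). The type IX chains were unequal in level but alike in ratio. Col9a3 had 1050 and 979 counts (1.06, 0.974 to 1.16), Col9a2 had 182 and 162 (1.11, 0.897 to 1.39) and Col9a1 had 36 and 32 (1.12, 0.674 to 1.86). All 3 were above 1 with intervals that held 1, and so was their summed count of 1268 and 1173 (1.07, 0.990 to 1.16). Col12a1 had 246 and 258 counts, Col14a1 34 and 23, and Col20a1 44 and 60, again with intervals that held 1. Col18a1, the heparan sulfate collagen whose end fragment is endostatin, had 519 and 561 counts (0.918, 0.813 to 1.04). Col28a1, a collagen found beside peripheral glia, had the highest ratio of the 58 measured members, 3.17 (1.11 to 11.1), from 16 and 5 counts, and at this depth it cannot be given with any precision. Over the 29 measured collagens, 14 had a ratio above 1 and 15 below, and the median log2 ratio was -0.0037. The summed counts of all 41 collagen chains, which a few abundant chains dominate, had a ratio of 0.977 (0.961 to 0.993), and those of all 84 members 0.984 (0.974 to 0.994). Summed TPM did not show this: it was 516.99 with Aβ and 517 with DMSO for collagens, and 1397 and 1388 for all members. TPM carried a common upward shift, with a median log2 TPM ratio of 0.037 over all measured genes. The log2 ratios of both TPM sums lay below this median, so only the direction without regard to this shift depends on the unit.

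Laminins were carried by few chains. The gamma chain Lamc1 had 2783 counts with Aβ and 2693 with DMSO (1.02, 0.972 to 1.08). Of the beta chains, Lamb2 had 1548 and 1480 counts (1.04, 0.965 to 1.11) and Lamb1 262 and 241 (1.08, 0.902 to 1.29), so that Lamb2 had 6.69 times the TPM of Lamb1 with Aβ and 6.85 times with DMSO. Of the alpha chains, which set receptor binding, Lama5 had 1535 and 1581 counts (0.963, 0.897 to 1.03) and Lama4 590 and 565 (1.04, 0.921 to 1.16). Lama2, the chain of muscle and of the laminin best known in myelination, was far lower at 37 and 26 counts, or 0.37 TPM and 0.26 TPM, with a ratio of 1.41 (0.832 to 2.43). Lama1 had 29.63 and 28.03 fractional counts. Nid1, the main nidogen, had 2116 and 2085 counts (1.01, 0.947 to 1.07). Nid2 had 174 and 210, with a ratio of 0.822 and an interval that reached just past 1 (0.668 to 1.01). Over the 9 measured laminins and nidogens, 7 had a ratio above 1 and 2 below, the median log2 ratio was 0.050, and every interval held 1.

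Among the remaining matrix proteins, Sparc had 4337 counts with Aβ against 4429 with DMSO, for a ratio of 0.971 (0.931 to 1.01). Fn1, the fibronectin that assembles on integrins, had 999 and 1001 counts (0.990, 0.906 to 1.08). Postn, a matricellular protein that binds Itgav integrins, was the lowest member at 10 CPM or more, with 360 and 481 counts (11.47 TPM and 15.02 TPM), a ratio of 0.742 (0.646 to 0.853). Its counting intervals on the TPM scale did not overlap, at 10.3 to 12.7 TPM and 13.7 to 16.4 TPM. Its promoter window is shown as that of the lowest ratio at this level.
Postn (GRCr8 chr2:140677811-140678110, plus strand): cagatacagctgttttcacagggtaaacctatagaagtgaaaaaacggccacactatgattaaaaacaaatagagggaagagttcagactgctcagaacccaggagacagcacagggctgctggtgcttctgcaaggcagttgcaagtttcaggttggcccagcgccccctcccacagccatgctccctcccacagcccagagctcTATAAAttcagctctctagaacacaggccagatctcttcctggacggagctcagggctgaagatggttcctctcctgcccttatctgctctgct
The capitals mark a TATA box at -44, found in 14.2% of all windows, in 6.26% of those of measured genes and in 6 of the 64 member windows (9.38%).

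Integrin transcripts were dominated by Itgb1, with 7551 counts with Aβ against 7530 with DMSO, for a ratio of 0.995 (0.963 to 1.03). Its laminin-binding alpha partners were Itga6, with 2857 and 2875 counts (0.986, 0.936 to 1.04), Itga7, with 1087 and 1111 (0.970, 0.892 to 1.06), and Itga3, with 221 and 213 (1.03, 0.849 to 1.25). Their summed ratio was 0.984 (0.942 to 1.03). Itgb1 and these 3 alpha subunits had ratios between 0.970 and 1.03 with intervals that held 1. Itgb4, which pairs with Itga6 alone in hemidesmosomes, had 40 and 37 counts (1.07, 0.668 to 1.72). Collagen-binding alpha subunits were low beside them: Itga2 had 72 and 62 counts, Itga1 6 and 5, Itga11 4 and 1, and Itga10 1 and 2. Their 4 genes summed to 1.24 TPM and 1.01 TPM, against 80.6 TPM and 79.9 TPM for the 3 laminin-binding subunits.

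Of the alpha subunits that recognise the RGD tripeptide of fibronectin and vitronectin, 3 of 4 had ratios below 1. Itgav had 5349 counts with Aβ against 5583 with DMSO, for a ratio of 0.950 (0.915 to 0.987). Itga5, the fibronectin receptor subunit, had 415 and 522 counts (9.59 TPM and 11.8 TPM), a ratio of 0.789 (0.692 to 0.899). Itga8, a receptor for nephronectin, had 138 and 170 counts, a ratio of 0.805 (0.639 to 1.01). Itga2b, the platelet subunit of the same binding class, lay the other way with 74 and 65 counts (1.13, 0.798 to 1.60). Summed over the 4, a group formed after the values were seen, the counts were 5976 and 6340, with a ratio of 0.935 (0.902 to 0.969). Most of these counts belong to Itgav.

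The beta partners of Itgav differed in level. Itgb8, which pairs with Itgav alone and is known for activating latent TGF-beta, had 4945.95 counts with Aβ against 4644 with DMSO, for a ratio of 1.06 (1.01 to 1.10), an interval that held 1 once the length trend was removed. Itgb5 had 1637 and 1633 counts (0.994, 0.928 to 1.07). Itgb3 and Itgb6 had 2 counts with Aβ and 1 with DMSO each. Itgav had 1.19 times the TPM of Itgb8 with Aβ and 1.32 times with DMSO. Itga9, a tenascin receptor subunit, had 59 and 43 counts (1.36, 0.903 to 2.07). Leukocyte integrins were low, with Itgal at 103 and 106 counts, Itgb2 at 38 and 35.13, Itgam at 13 and 18 and Itgax at 8 and 3, and Itgae had 119 and 135. The 4 measured microglial markers all had ratios below 1 with intervals that held 1 and a median log2 ratio of -0.25. C1qa had 11 and 21 counts, Cd68 22 and 31, Aif1 19 and 21 and Csf1r 47 and 50. C1qa passed the minimum of 1 CPM only in the DMSO library, so its ratio had to lie below 1. Under the minimum, Tyrobp had 7 and 13, while C1qb had 14 and 9 and P2ry12 8 and 5. Their part in these levels was not tested. Over the 17 measured integrin subunits, 7 had a ratio above 1 and 10 below, and the median log2 ratio was -0.0082.

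Counts and TPM were compared for each member, since a change of isoform alters the length by which the counts are divided. For all measured genes with 2 TPM or more in both libraries, the TPM ratio exceeded the count ratio by a median of 0.038 on the log2 scale. After this common shift was subtracted, the 35 members at that level lay between -0.018 (Lamb1) and 0.024 (Col5a1). None lay beyond 0.1 in size, against 2.41% of the 11982 genes at that level, so the effective lengths used by the authors were nearly the same in both libraries for every member compared. Fractional counts were listed for 6 of the 84 members (7.14%, beside 13.4% of all genes): Col1a2, Itgb8, Itgb2, Lama1, Col23a1 and Col4a3. Of the 10 members with an interval that left out 1, Col1a2 and Itgb8 are among these.

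Genes that make, modify or relay the matrix were taken from 5 lists, in which no gene met the rule of size. Collagen processing enzymes lay above 1 for 8 and below 1 for 19 of 27 measured genes, with a median log2 ratio of -0.026. Intervals were wholly below 1 for 3 of them (11.1%, beside 6.88% of all measured genes) and wholly above 1 for 0 (beside 6.49%). The 3 are the prolyl hydroxylase P3h3 (1192 and 1336 counts, ratio 0.885, 0.818 to 0.958), the collagen chaperone Fkbp10 (0.910, 0.837 to 0.989) and Bmp1, which trims procollagens (0.933, 0.877 to 0.992). The furthest gene of the list was Loxl4, a lysyl oxidase, with 7 and 17 counts, followed by P4ha2 with 49 and 57. Loxl4 passed the minimum of 1 CPM only in the DMSO library, so its ratio had to lie below 1. The same holds for Loxl2, with 15 and 17 counts.

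Basement membrane partners had a median of 0.022 over 16 measured genes, with 1 interval wholly above 1 and 1 wholly below (6.25% each, beside 6.49% and 6.88% of all measured genes). Dag1, the dystroglycan that binds laminin, had 7942 and 7520 counts (1.05, 1.01 to 1.08), and the syndecan Sdc1 had 572 and 647 (0.877, 0.782 to 0.983). Frem2 had 55 and 42 counts, the laminin receptor Bcam 146 and 176, and Frem1 17 and 21.

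Integrin adaptors and focal adhesion genes had a median of -0.017 over 32 measured genes, and the interval left out 1 for 4 on the higher side (12.5%, beside 6.49% of all measured genes) and 5 on the lower side (15.6%, beside 6.88%). The furthest were the leukocyte kindlin Fermt3, with 13.06 and 26.68 fractional counts, the tetraspanin Cd151, with 302.06 and 225.71 fractional counts, and the kinase Ptk2b, with 152 and 133 counts. Fermt3, among the 5 on the lower side, passed the minimum of 1 CPM only in the DMSO library, so its ratio had to lie below 1.

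Other matrix ligands had a median of -0.033 over 24 genes, with 2 intervals wholly above 1 and 2 wholly below (8.33% each, beside 6.49% and 6.88% of all measured genes). Among them the Itgav ligand Spp1 had 3991 and 4364 counts (0.907, 0.869 to 0.947), Thbs4 347 and 402 (0.856, 0.739 to 0.991) and Tnc 3871 and 3642 (1.05, 1.01 to 1.10), and the furthest was the endothelial protein Vwf with 36 and 15 counts (2.38, 1.27 to 4.68). Vwf passed the minimum of 1 CPM only in the Aβ library, so its ratio had to exceed 1. Collagen receptors that are not integrins lay above 1 for 4 of 5 genes, with a median of 0.076, and 2 intervals were wholly above 1 (40%, beside 6.49% of all measured genes). With 5 genes this share is coarse. The 2 are Ddr1, with 7433 and 6993 counts, and Adgrg1, with 17849 and 17150, where high counts make intervals narrow enough to leave out 1 at small differences. The kinase Ddr1 stood at 269 TPM and 249 TPM (1.05, 1.02 to 1.09), and Adgrg1, a collagen III receptor, at 521 TPM and 492 TPM (1.03, 1.01 to 1.05). Ddr2, the companion kinase, stood at 10.7 TPM and 11.1 TPM, with 955 and 1015 counts (0.933, 0.853 to 1.02), and the leukocyte receptor Lair1 at 1.45 TPM and 1.26 TPM (1.13, 0.760 to 1.69).

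The 26 members under 1 CPM in both libraries were 12 collagens, 4 laminin chains, 9 integrin subunits and Itgbl1. Col15a1, a basement membrane collagen of vessels and muscle, had 0 whole counts with Aβ and 15 with DMSO and fell just short of the minimum at 0.9995 CPM. The upper limit of its ratio was 0.277. It was the only one of the 26 whose interval left out 1, and it was singled out after its value was seen. The share of all genes under 1 CPM with such an interval was not computed, so this number has no background beside it. Of the 5 measured endothelial markers, the ratio exceeded 1 for 4, and their median was 0.26 on the log2 scale. Vwf had 36 and 15 counts, Egfl7 18 and 9, Esam 16 and 12, Kdr 22 and 19 and Flt1 18 and 29, and only the interval of Vwf left out 1. Vwf, Egfl7 and Esam passed the minimum of 1 CPM only in the Aβ library, so their ratios had to exceed 1. Under the minimum, Pecam1 had 4 and 6 counts, Tek 8.3 and 5.88, Emcn 1 and 0 and Tie1 1 in each. Of the 6 measured pericyte and smooth muscle markers, 3 lay above 1 (Tagln, Des and Notch3) and 3 below (Anpep, Pdgfrb and Myh11), with a median of 0.057 and intervals that held 1. Their part in the Col15a1 difference was not tested. The remaining 25 had at most 13 counts in a library.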

How the data were processed

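RNA of 2 rat OPC cultures, 1 treated with Aβ and 1 with DMSO, was sequenced with 1 library each, grouped by the treatment in the labels. Per the submitters' processing notes, Bowtie2 and the build Rnor_6.0 were used. For versions, quantifier, annotation and strand, nothing is given in the sources used here. The deposited table holds the authors' estimated counts (expected counts), which need not be whole, and the authors' TPM and FPKM values, scaled by transcript length and library per the file headers. The file headers also name a deposited signal column of normalized reads, which was not used.

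Estimated counts were rounded to whole numbers and turned into CPM on TMM effective library sizes over the whole table (edgeR 4.0.16, R 4.3.3). Ratios carry 95% limits by the exact Clopper-Pearson method, given the summed count of both libraries, and TPM levels carry exact Poisson intervals of the count (scipy 1.17.1). Reads without molecular identifiers are not independent molecules, so both cover counting error only. No fold is given against a count of 0. Sums over chains that assemble together or subunits that bind alike were formed after the values were seen. With 1 library per group no test was run. The calculation was tested on simulated counts. Values are given in full for called members, the 12 most abundant, up to 6 each way by log2 ratio at 5 CPM or more, those with fractional counts or an interval that leaves out 1, and a fixed panel, and for the 3 furthest genes of each pathway list. Genes outside this rule that share an assembly, an interval that leaves out 1 or a marker list are named beside them. Members, the 5 pathway lists and the 9 marker lists were chosen with earlier results of these data known. Some members are not reported here by name. Promoter windows are from RefSeq (GRCr8), matched by gene identifier. Alternatives covered normalization (including DESeq2 1.42.0 size factors), filters, pseudocounts, units, fractional counts and the fold.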

Additional observations from a re-analysis of the deposited data

How the results depend on the processing

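With 1 library per group no replicate could be left out. No paired analysis was possible because each group has 1 sample and no test. Members called higher were 0 except with a pseudocount of 0.1 CPM (1, Col28a1) and with a 1.5-fold rule (2, Col28a1 and Col1a2). Members called lower were 0 except with no filter on level (1, Col15a1). Members with an interval wholly above 1 went from 4 to 2 with a filter of 10 CPM, to 2 with whole counts only and to 2 with the length trend removed. Those wholly below 1 numbered 6 or 7 in these and 4 further alternatives, all chosen after seeing the data. With TPM the median log2 ratio of members was 0.035, beside 0.037 for all measured genes. The median was 0.00072 with DESeq2 size factors, 0.019 with no filter and -0.015 with a filter of 10 CPM, so its sign depends on the setting. In an alternative chosen after seeing the data, the median of genes of like transcript length was subtracted, because 45 of the 58 members fall in the longest 5 of 20 length bins, whose medians run from -0.040 in the shortest to 0.041 in the longest. The medians then were -0.013 for members, -0.038 for collagens, 0.016 for laminins and nidogens and -0.0080 for integrins. The log2 ratio of Itgb8 went from 0.079 to 0.038 and that of Itgav from -0.073 to -0.11. All 328 alternative values of the 34 named members stayed within their counting intervals, and 10 members near 1 changed sign in at least 1 of them (Col11a1, Col16a1, Col4a1, Col4a2, Fn1, Itga6, Itgb1, Itgb5, Lamc1 and Nid1). The 328 include the settings with no filter, a filter of 10 CPM and whole counts only. These leave the ratio of a single gene as it was, so their values could not move. The order by FPKM gave the same 12 most abundant members. Depth limits the low members: the counting interval lay within 1.5-fold for 33 of the 35 members at 10 CPM or more, against 36 of all 58.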

Other observations

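Protein-coding genes next to the collagen VI pair on chromosome 20 of GRCr8 were read from the same table, named after the values of Col6a1 and Col6a2 were seen. On the Col6a1 side, the nearest measured genes were Pcbp3, an RNA-binding protein, with 887 counts with Aβ and 955 with DMSO (0.921, 0.840 to 1.01), the folate transporter Slc19a1 with 174 and 186 (0.928, 0.750 to 1.15) and the member Col18a1 with 519 and 561 (0.918, 0.813 to 1.04). Pofut2, beyond them, had 728 and 674 (1.07, 0.963 to 1.19). On the Col6a2 side, the sterol enzyme Lss had 1341 and 1322 counts (1.01, 0.932 to 1.09) and Mcm3ap 1638 and 1572 (1.03, 0.964 to 1.11). Ybey and Pcnt followed at 1.01 (0.806 to 1.27) and 1.04 (0.927 to 1.16). Of these 8 neighbours none had an interval that left out 1, beside 13.4% of all measured genes in either direction. With so few neighbours, this does not set them apart from other genes. Around Col4a1, Postn and Itga5, read in the same way, 5 of 24 measured neighbours had such an interval, beside the same 13.4% of all measured genes. Near Postn these were Ufm1 (742 and 814 counts, 0.904, upper limit 0.99995), Rfxap (35.67 and 61.88 fractional counts, 0.576, 0.371 to 0.882) and Smad9 (48.08 fractional counts and 0). Smad9, among these 5, passed the minimum of 1 CPM only in the Aβ library, so it had to differ. Near Itga5 it was Hnrnpa1 (0.954, 0.939 to 0.970), and near Col4a1 it was Lig4 (1.13, 1.02 to 1.26).

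Further members that lie side by side in GRCr8 rested on few counts for at least 1 partner. Col5a2 had a ratio of 1.02 beside 0.661 (0.137 to 2.79) for Col3a1. Itga2 and Itga1 stood at 1.15 (0.809 to 1.64) and 1.19 (0.303 to 4.93), and Col9a1 and Col19a1 at 1.12 (0.674 to 1.86) and 1.10 (0.561 to 2.16).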
